A study of Mus musculus with 13 samples.

Results

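Heat shock proteins are molecular chaperones, and DnaJ proteins are the cochaperones that bring unfolded proteins to one family of them. The genes described here are all those whose symbol begins with Hspa, Hspb, Hspd, Hspe, Hsph, Hsp90 or Dnaj and that a probe set names alone. They are 72 of the 18193 genes on the array, measured by 174 of 45037 probe sets, a probe set being the group of short oligonucleotides that reads 1 transcript. Each gene was represented by its probe set with the highest mean over all arrays, called the brightest here. For those of the 72 genes described singly, the other probe sets above the array medians are given beside the brightest. Of the 72 genes, 46 had more than 1 probe set. Hspbp1, an exchange factor of Hsp70, and Hspbap1, a partner of Hspb1, are in the group by their symbols only. Hsp90ab1, Dnajc19 and Hsf1 were not analysed here.

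The arrays measured total RNA from brain hemispheres of 13 male C3HeB/FeJ mice, an inbred strain, with no transgene or deletion named in the labels. The creatine-fed group, 6 mice, ate pellets with 1% creatine freely for 6 months. The untreated group, 7 mice, ate pellets of equal calories that lacked creatine. Feeding began at 10 to 12 weeks of age, and the arrays are labelled as biological replicates. Creatine is the substrate from which creatine kinase makes the phosphocreatine that buffers ATP, and the comparison addresses how brain transcripts differ after long feeding.

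Hsp70 proteins bind exposed hydrophobic stretches of a client protein and release them in a cycle driven by ATP. DnaJ proteins load the client and trigger ATP hydrolysis, and Hsp110 proteins and other exchange factors replace ADP by ATP. Hsp90 acts later on partly folded clients, small heat shock proteins hold unfolded ones in solution without ATP, and the Hsp60 barrel folds proteins inside mitochondria. When proteins unfold in the cytosol, the factor Hsf1 binds heat shock elements in the promoters of many of these genes, and when they unfold in the endoplasmic reticulum (ER), Atf6 acts through ER stress response elements. In neurons, DnaJ proteins also serve synaptic vesicles.

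The promoters were searched for fixed spellings of these elements next to the starts of the genes. RefSeq promoter windows of the build GRCm38.p6, from 250 bases before to 50 bases after a gene's start, were given for 59 of the 72 genes. The stretches below are printed because these genes carry the full elements, with the matching bases in capitals and 30 bases on either side. The heat shock element was searched on both strands as GAANNTTCNNGAA, which stood in 0.603% of all 32851 windows. The ER stress response element was searched on both strands as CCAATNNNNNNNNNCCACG, which stood in 0.119% of the windows. The first stretch lies at chr1:55088034-55088106 on the minus strand, the second at chr5:29735822-29735894 on the plus strand, and the third at chr2:34771995-34772073 on the plus strand. The stretch of Hsp90b1 lies at chr10:86705608-86705686 on the minus strand and that of Dnajc3 at chr14:118937797-118937875 on the plus strand. All are upstream of the transcription start.
Hspd1, heat shock element: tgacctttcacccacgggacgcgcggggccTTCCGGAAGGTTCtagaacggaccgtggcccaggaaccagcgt
Dnajb6, heat shock element: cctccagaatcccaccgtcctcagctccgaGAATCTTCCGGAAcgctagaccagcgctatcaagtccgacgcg
Hspa5, ER stress response element: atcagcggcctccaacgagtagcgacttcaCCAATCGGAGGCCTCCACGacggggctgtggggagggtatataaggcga
Hsp90b1, ER stress response element: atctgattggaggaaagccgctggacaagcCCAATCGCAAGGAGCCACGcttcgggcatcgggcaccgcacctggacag
Dnajc3, ER stress response element: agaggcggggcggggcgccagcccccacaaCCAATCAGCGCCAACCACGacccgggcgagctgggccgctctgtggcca

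Hspd1 and Hspe1, which encode the mitochondrial Hsp60 and its lid, start close together on opposite strands. The heat shock element of Hspe1 lies at chr1:55088059-55088071, overlapping the one printed for Hspd1. Hsph1 held the fourth match, which did not lie wholly before its start. The ER element matched Hspa5, Hsp90b1 and Dnajc3 among these genes. The shorter form GAANNTTC, which overlaps the longer element wherever that is present, matched 14 of the genes, Hspa1a, Hspa1b, Hspb1 and Dnaja1 among them, and 7.86% of all windows. A match describes letters in this window and nothing about binding. Other spellings, and bases outside the window, were not searched, so a gene without a match is not shown to lack the element.

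No heat shock protein or DnaJ gene passed the test between creatine-fed and untreated mice. The test was limma, a linear model fitted to all 45037 probe sets, on log2 of the intensity plus 16, 2-sided, with Benjamini-Hochberg adjustment over all of them and a threshold of 0.05. It called 0 of the 72 genes at their brightest probe set and 0 of the 174 probe sets, where the background was 0.0055% of genes and 0.00888% of probe sets. By an unadjusted p under 0.05, 18 probe sets differed (background 11.9%) and 7 genes, 4 higher and 3 lower in creatine-fed mice. The background for genes was 11.2% of the whole table, 3.58% higher and 7.61% lower, so the share among the chaperones was in total no larger than elsewhere. With each array centred on its median, 6 genes were higher and 1 lower at that p. Centring moved the whole table the same way: 63.9% of all probe sets under that p were then higher, against 35.1% without it. An exact permutation test over the 1716 ways to split the mice put 11 of the 72 genes at an unadjusted p under 0.05, beside 12.6% of all genes. It called none, which carries no weight: its smallest possible p is 0.000583, and its smallest adjusted p over the whole table was 0.17.

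The differences were small in both directions. Of the 72 genes, 38 had the higher mean in creatine-fed mice and 34 the lower. Their median log2 difference, creatine-fed minus untreated, was 0.008, against -0.027 over all genes. With each array centred on its median, 45 were higher and 27 lower, and with quantile normalization 40 and 32, so the split moved with the scaling. The median size of a difference regardless of sign was 0.075 on the log2 scale, and 0.090 over all genes. For genes averaging above the median of every array, it was 0.070 among the chaperones and 0.076 among all. The median log2 differences of these brighter genes were 0.016 and -0.010. At the brightest probe set, 56 of the genes averaged above the median of every array. For 28 of these 56 the 95% interval of the log2 difference lay within 0.25 of no change, and for 54 it lay within 0.5. The within-group spread of these 56 genes had a median SD of 0.110 on the log2 scale, from 0.052 for Hspa9 to 0.25 for Hspa1a, while all 10927 genes that bright had a median of 0.136. In whole tissue, fewer cells of a type and less RNA per cell cannot be told apart.

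Array medians ran from 37 to 43 in creatine-fed mice and from 41 to 45 in untreated mice. The mean correlation of an array with the others ran from 0.978 to 0.982 across probe sets, so no array stood far apart. The 3' to 5' ratio of the actin control, a measure of RNA integrity, was 1.42 to 1.68 in creatine-fed mice and 1.53 to 1.72 in untreated mice (exact permutation p = 0.131, 2-sided). All 8 markers of neurons lay above the array medians. All 5 measured oligodendrocyte markers had lower means in creatine-fed mice, with a summed intensity of 12669 to 14794, against 14444 to 18274 in untreated mice. All 6 microglia markers averaged higher in creatine-fed mice, with a sum of 1789 to 1946, against 1635 to 1966 in untreated mice. No marker passed the test, none was listed at 0 on all arrays, and the part of cell types in the chaperone values was not tested.

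**Figure D1:**
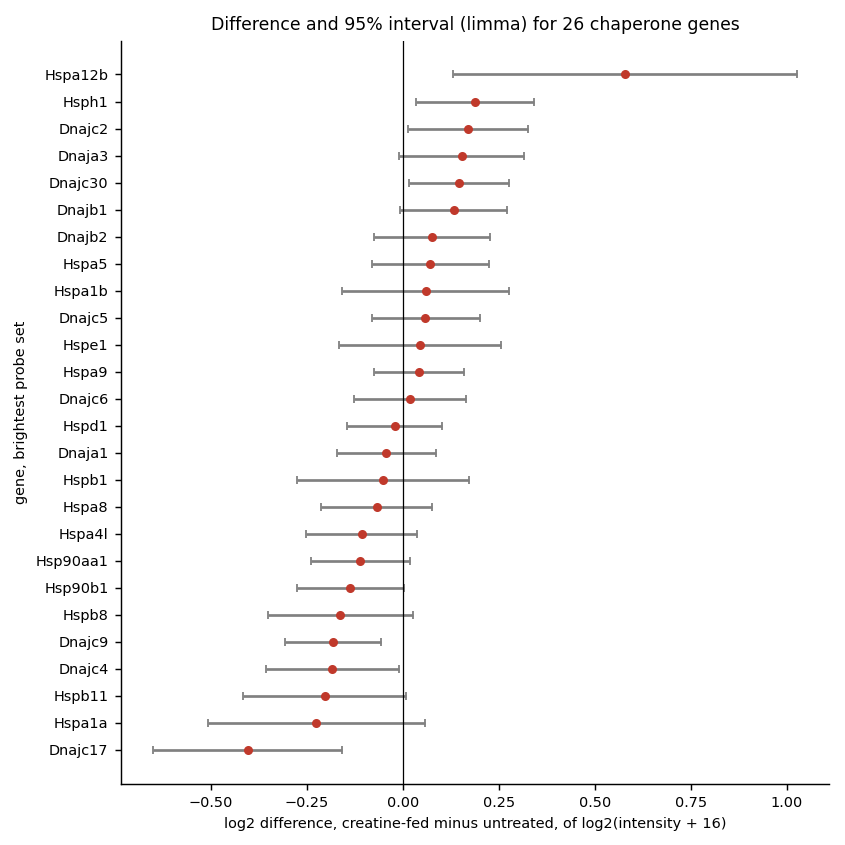
Log2 difference, creatine-fed minus untreated, of log2(intensity + 16) on the horizontal axis for 26 heat shock protein and DnaJ genes at their brightest probe sets. Points are limma estimates and bars are 95% intervals, not adjusted for the number of genes; Hspa12b, at 0.58, and Dnajc17, at -0.40, lie farthest from 0.

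The heat-inducible genes, which Hsf1 activates when proteins unfold, showed no common direction. Of the 11 measured, 4 had the higher mean in creatine-fed mice and 7 the lower, with a median log2 difference of -0.043; with arrays centred on their medians, 6 were higher and 5 lower, with a median of 0.009. Hspa1a and Hspa1b encode nearly the same inducible cytosolic Hsp70, so their probe sets may share signal. Hspa1a intensity ran from 62 to 112 with a median of 99 in creatine-fed mice, and from 74 to 132 with a median of 119 in untreated mice. The groups overlapped and the log2 difference was -0.23 ± 0.13 (SE, limma adjusted p = 0.537). Hspa1b ran from 148 to 214 with a median of 157.5 in creatine-fed mice and from 133 to 186 with a median of 168 in untreated mice. Its groups overlapped too, and its other probe sets had log2 differences of -0.11 and 0.06. For both genes, which heat or proteotoxic stress induces strongly, the 95% interval of the difference included 0.

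Hspa8 encodes the constitutive cytosolic Hsp70, which also strips clathrin from vesicles. Its intensity was 7120 to 8136 with a median of 7798.5 in creatine-fed mice, and 7381 to 9306 with a median of 7791 in untreated mice. The medians nearly coincided, the highest untreated mouse lay above every creatine-fed mouse, and the log2 difference was -0.07 ± 0.07 (SE, limma adjusted p = 0.742). With arrays quantile-normalized the value was 0.03. Of the other probe sets of Hspa8 above the array medians, 1420623_x_at and 1420622_a_at gave -0.06 and -0.12, and 1431182_at gave 0.10 ± 0.11 (SE). Over all 8 cytosolic Hsp70 genes, 4 means were higher and 4 lower, with a median log2 difference of -0.029 (0.007 with quantile normalization, 0.022 with median centring).

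At their brightest probe sets, the widest difference of the 72 genes was at Hspa12b, an atypical family member known from endothelial cells. Hspa12b was measured by a probe set below the array medians. Its intensity was 18 to 32 with a median of 25 in creatine-fed mice, and 4 to 40 with a median of 8 in untreated mice. Each of the 6 creatine-fed values exceeded the untreated mean, yet the untreated group spanned the whole creatine-fed range. The log2 difference was 0.58 ± 0.21 (SE, limma adjusted p = 0.296), on a scale where the added 16 exceeds most of the untreated values. With 1 added instead the difference was 1.26, and with 50 added it was 0.27, so its size depended on the offset. Of the 5 measured endothelial markers, 3 averaged lower in creatine-fed mice, with sums of 785 to 922 in creatine-fed mice and 903 to 1038 in untreated mice; the part of endothelial cells in the Hspa12b value was not tested.

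Among the Hsp110 exchange factors, Hsph1 had the largest difference. It was 1445 to 1730 with a median of 1650.5 in creatine-fed mice and 1277 to 1560 with a median of 1378 in untreated mice. Each creatine-fed value exceeded the untreated mean, but the ranges overlapped between 1445 and 1560. The log2 difference was 0.19 ± 0.07 (SE, unadjusted p = 0.0198, adjusted p = 0.324, limma). At the second probe set, 1423566_a_at, it was 0.02 ± 0.08 (SE), with 992 to 1130 in creatine-fed mice and 904 to 1186 in untreated mice. Hspa4l, a testis-rich relative, was 502 to 605 with a median of 561.5 in creatine-fed mice and 548 to 652 with a median of 602 in untreated mice, which overlapped (log2 difference -0.11 ± 0.07, SE). Its other 4 probe sets gave 0.11, 0.04, -0.08 and 0.30, so their signs differed. Hspa4 had a log2 difference of 0.14 ± 0.10 (SE), and -0.08 and 0.06 at its other probe sets above the array medians.

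Dnajb1, the Hsp40 that partners inducible Hsp70, was 532 to 671 with a median of 612 in creatine-fed mice. In untreated mice it was 524 to 592 with a median of 561. The ranges overlapped, 5 of 6 creatine-fed values exceeded the untreated mean, and the log2 difference was 0.13 ± 0.07 (SE, limma adjusted p = 0.448). Its other probe set gave 0.008 ± 0.06 (SE). Dnaja1, a class A partner of Hspa8, was 1909 to 2248 with a median of 2075.5 in creatine-fed mice and 1932 to 2226 with a median of 2138 in untreated mice. Those ranges nearly coincided, and 1416288_at of Dnaja1 gave a log2 difference of 0.004 ± 0.07 (SE). Its probe set 1459835_s_at was 830 to 952 with a median of 926.5 in creatine-fed mice and 926 to 1207 with a median of 1018 in untreated mice. There the ranges overlapped only at their edges, each of the 6 creatine-fed values was under the untreated mean, and the log2 difference was -0.20 ± 0.07 (SE, unadjusted p = 0.0146, adjusted p = 0.295, limma).

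Hspb1, a small heat shock protein that binds unfolded clients and actin, was 166 to 252 with a median of 210.5 in creatine-fed mice. It was 192 to 274 with a median of 216 in untreated mice, and the ranges overlapped (log2 difference -0.05 ± 0.11, SE); 1425964_x_at gave 0.06 ± 0.19 (SE). Hspd1 was 1405 to 1583 with a median of 1476 in creatine-fed mice and 1397 to 1601 with a median of 1509 in untreated mice. Hspe1 was 787 to 1200 with a median of 878.5 in creatine-fed mice and 792 to 990 with a median of 913 in untreated mice. Neither partner of the Hsp60 barrel separated the groups, with log2 differences of -0.02 ± 0.06 for Hspd1 and 0.04 ± 0.10 for Hspe1 (SE). At the second probe set of Hspe1 the sign was opposite, at -0.13 ± 0.08 (SE).

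**Figure D2:**
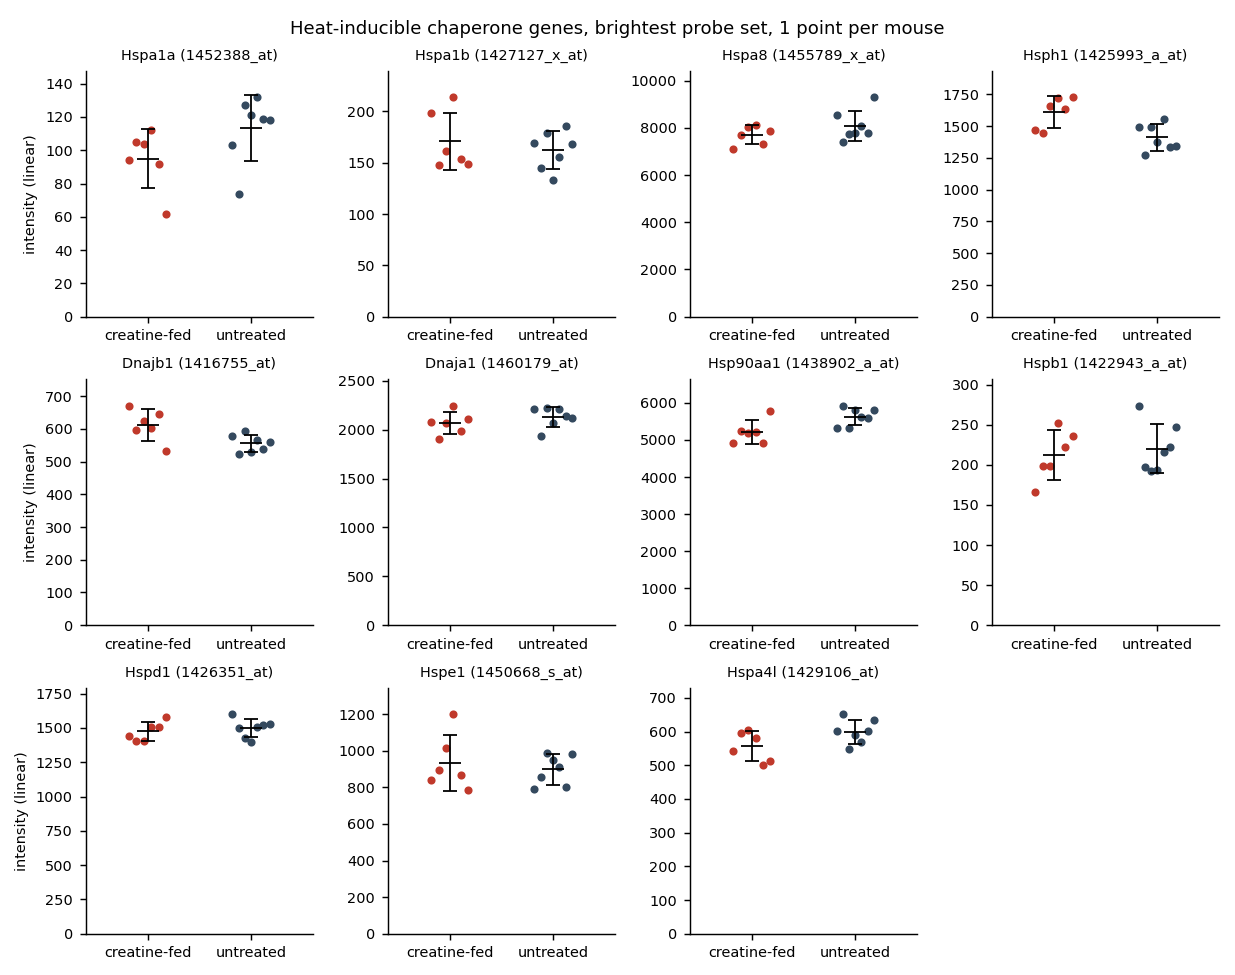
Intensity on a linear scale in every mouse for the 11 measured heat-inducible genes, creatine-fed mice left of untreated mice in each panel, with the mean and SD of each group. The groups overlap in all 11 panels; Hsph1 averages 1611 in creatine-fed mice and 1412 in untreated mice, and Hsp90aa1 averages 5216 in creatine-fed mice and 5630 in untreated mice.

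Both measured Hsp90 genes had lower means in creatine-fed mice at their brightest probe sets and higher means at another. Hsp90aa1 encodes the inducible cytosolic Hsp90. At 1438902_a_at it was 4907 to 5794 with a median of 5205 in creatine-fed mice, and 5323 to 5930 with a median of 5623 in untreated mice. The ranges overlapped and the log2 difference was -0.11 ± 0.06 (SE, limma adjusted p = 0.498). At 1437497_a_at it was 3043 to 3728 with a median of 3450 in creatine-fed mice, and 2479 to 3344 with a median of 2906 in untreated mice. There the log2 difference was 0.26 ± 0.09 (SE, limma adjusted p = 0.257), while the probe set 1426645_at gave 0.07 ± 0.08 (SE). The direction of Hsp90aa1 thus depended on the probe set.

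Hsp90b1 encodes Grp94, the Hsp90 of the ER. At 1415889_a_at it was 1194 to 1356 with a median of 1273.5 in creatine-fed mice, and 1274 to 1543 with a median of 1413 in untreated mice. No creatine-fed mouse reached the untreated mean of 1402, although the ranges overlapped (log2 difference -0.14 ± 0.07, SE, limma adjusted p = 0.438). At 1438040_a_at it was 578 to 814 with a median of 691.5 in creatine-fed mice, and 528 to 730 with a median of 592 in untreated mice. The log2 difference there was 0.18 ± 0.10 (SE), of opposite sign.

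Hspa5 encodes BiP, the Hsp70 of the ER, and its 3 probe sets disagreed. At the brightest, 1416064_a_at, intensity was 1790 to 2106 with a median of 1962 in creatine-fed mice, and 1598 to 2062 with a median of 1871 in untreated mice. These overlapped, and the log2 difference was 0.07 ± 0.07 (SE, limma adjusted p = 0.744). At 1427464_s_at intensity was 882 to 1077 (median 951.5) in creatine-fed mice and 1015 to 1164 (median 1085) in untreated mice. Each of the 6 creatine-fed values there was under the untreated mean. The log2 difference was -0.17 ± 0.06 (SE, unadjusted p = 0.017, adjusted p = 0.311, limma). At 1447824_x_at intensity was 127 to 148 (median 135) in creatine-fed mice and 159 to 220 (median 190) in untreated mice. Only at this last probe set did the groups not overlap, with a log2 difference of -0.43 ± 0.08 (SE), an unadjusted p of 0.000104 and an adjusted p of 0.126 (limma). It passed the threshold in 3 alternative analyses: with the brighter 22519 probe sets alone (adjusted p = 0.0378), with an offset of 50 (0.0476), and with limma's trend and robust options (0.0198). The suffix _x_at marks a probe set some of whose probes match other sequences, and _s_at one whose probes match several transcripts.

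Whether probe sets of a gene differed was tested directly, by a test added after the values were seen. For every gene with 2 or more probe sets averaging above 45, the highest array median, the other minus the brightest was taken in each mouse. Limma was fitted over all 8258 such pairs of 5053 genes, of which 75 passed, a background of 0.908%. Among the chaperones, 70 pairs of 39 genes were tested and 2 passed. For Hspa5, the 1447824_x_at minus 1416064_a_at value was lower in creatine-fed mice by a log2 difference of -0.50 ± 0.10 (SE, limma adjusted p = 0.0366). It was lower in 6 of 6 creatine-fed mice than the untreated mean, and the groups did not overlap. For Dnajc17, the 1420165_s_at minus 1446928_at value was higher by 0.74 ± 0.15 (SE, limma adjusted p = 0.0366), in 6 of 6 creatine-fed mice. Its probe set 1420165_s_at was dim, with a mean intensity of 45.8, just above the cut of 45, and of 39.4 in untreated mice. Next in order was Hsp90aa1, 1437497_a_at minus 1438902_a_at, at 0.37 ± 0.09 (SE, adjusted p = 0.0613), where the groups did not overlap either. With each of the 13 mice left out in turn, the Hspa5 pair passed in 5 cases and the Dnajc17 pair in 6, with adjusted p up to 0.089 for both. The Hspa5 call was lost without creatine-fed replicate 1, 3, 5 or 6 or untreated replicate 3, 4, 6 or 7. The Dnajc17 call was lost without creatine-fed replicate 1, 3 or 6 or untreated replicate 3, 4, 5 or 6. With an offset of 1 the adjusted p was 0.0501 for the Hspa5 pair and 0.052 for the Dnajc17 pair, so both calls lay close to the threshold.

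Across all 70 pairs of the chaperones, 34 had brightest and other probe sets of the same sign and 36 of opposite sign. The share of equal sign was 48.6%, against 58% over all pairs of the table. By an unadjusted p under 0.05, 17.1% of the chaperone pairs differed, close to the 16.7% of all pairs. By that p, probe sets of a chaperone gene disagreed about as often as those of other genes.

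**Figure D3:**
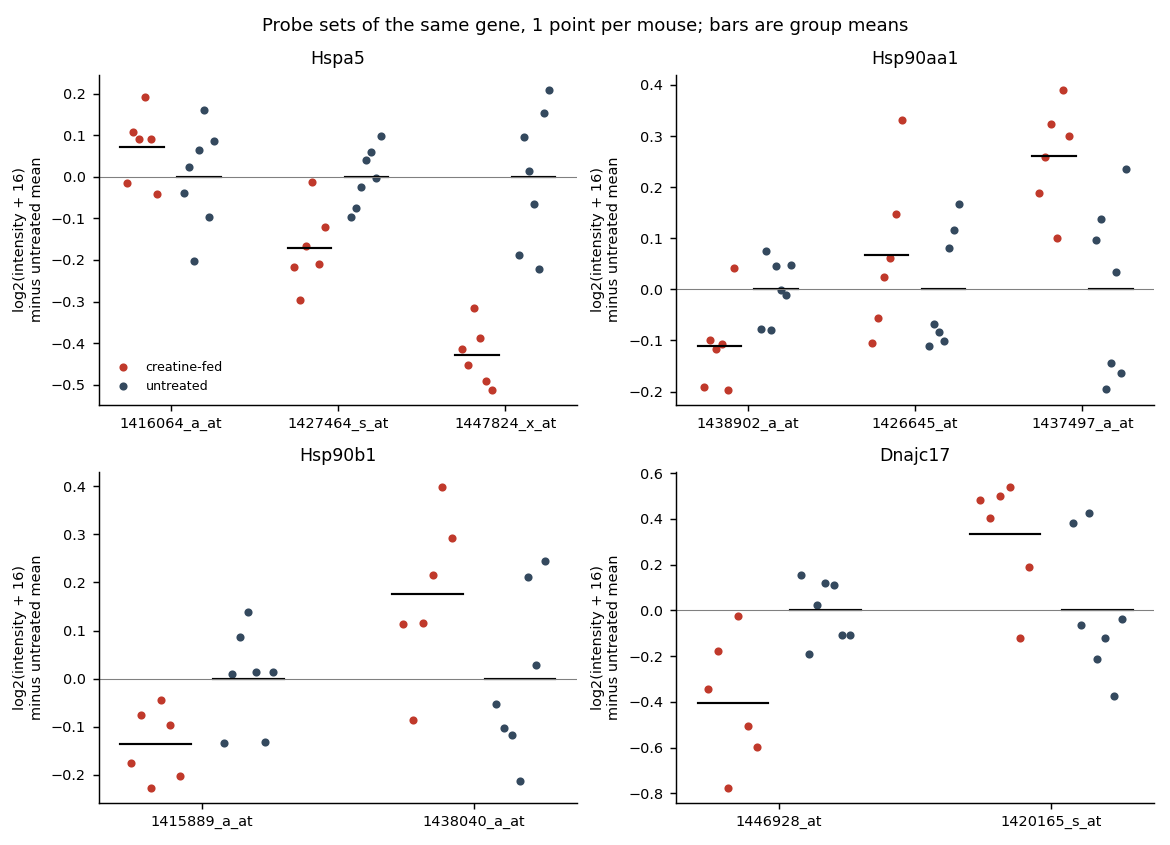
Intensity at each probe set of Hspa5, Hsp90aa1, Hsp90b1 and Dnajc17 as log2(intensity + 16) minus the untreated mean of that probe set, for every mouse, creatine-fed left of untreated, with bars at the group means. Creatine-fed mice lie on average 0.07 above and 0.43 below the untreated mean at different probe sets of Hspa5, and 0.40 below and 0.33 above it at those of Dnajc17.

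The ER folding machinery as a list gave no called difference. Of 13 ER chaperones and ER DnaJ genes, Hspa5 and Hsp90b1 included, 9 averaged higher in creatine-fed mice and 4 lower, with a median log2 difference of 0.042 and none at an unadjusted p under 0.05. Dnajb9 and Dnajb11, DnaJ partners of BiP, had log2 differences of 0.04 ± 0.06 and 0.04 ± 0.07 (SE). Dnajc3, the ER stress protein p58IPK, gave 0.07 ± 0.08 (SE), and Dnajc10, a disulfide reductase, -0.11 ± 0.11 (SE). Hspa13 gave 0.08 ± 0.10 (SE). At their other probe sets above the array medians, Dnajc3 ran from -0.26 to 0.23, Dnajc10 from -0.16 to -0.06 and Hspa13 from -0.04 to 0.28, so the sign was the same throughout for Dnajc10 alone of these 3. Of 24 genes of the unfolded protein response outside the group, 14 had higher means and 10 lower, 2 at an unadjusted p under 0.05 upward and 1 downward, and 0 passed. With median centring, 20 were higher and 4 lower.

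In that response, Sel1l, an adaptor of ER-associated degradation, averaged 771 ± 62.9 in creatine-fed mice and 688 ± 38.3 in untreated mice (SD, n = 6 and 7, limma adjusted p = 0.369). Edem1, which hands misfolded glycoproteins to that pathway, averaged 135 ± 9.35 in creatine-fed mice and 155 ± 15.8 in untreated mice (SD). Sec63, an ER DnaJ protein of the translocon, had a log2 difference of 0.17 ± 0.07, and Pdia3, a disulfide isomerase, of 0.16 ± 0.09 (SE). These are the list's smallest unadjusted p, in both directions. The values are from the brightest of 5 probe sets for Sel1l, 2 for Edem1, 5 for Sec63 and 2 for Pdia3. Their other probe sets are not given here.

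The mitochondrial chaperones had 4 means higher and 4 lower in 8 genes, with a median log2 difference of 0.011; with median centring, 6 were higher and 2 lower, with a median of 0.063, and with quantile normalization the median was -0.008. Hspa9, the mitochondrial Hsp70 that pulls imported proteins into the matrix, was 868 to 987 with a median of 885.5 in creatine-fed mice, and 840 to 901 with a median of 872 in untreated mice. The ranges overlapped, and 1 creatine-fed mouse at 987 stood above the rest (log2 difference 0.04 ± 0.05, SE). Its other 3 probe sets above the array medians gave -0.02, -0.06 and -0.02. Dnaja3, its class A partner, was 350 to 453 with a median of 388 in creatine-fed mice and 313 to 394 with a median of 369 in untreated mice. Its log2 difference was 0.15 ± 0.08 (SE, limma adjusted p = 0.456), with 5 of 6 creatine-fed mice above the untreated mean, and 1420629_a_at gave 0.02 ± 0.07 (SE).

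Dnajc30, a mitochondrial DnaJ protein linked to ATP synthase in mouse neurons, was 487 to 564 with a median of 528 in creatine-fed mice. It was 426 to 499 with a median of 477 in untreated mice. Each of the 6 creatine-fed values exceeded the untreated mean, and only the lowest of them fell within the untreated range. The log2 difference was 0.15 ± 0.06 (SE, unadjusted p = 0.0289, adjusted p = 0.361, limma).

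Of the 8 genes listed as small heat shock proteins by symbol, Hspb11 included, 7 had lower means in creatine-fed mice. The median log2 difference was -0.073, with none at an unadjusted p under 0.05. With quantile normalization or median centring, 5 of the 8 were lower. Only 4 of the 8 averaged above the array medians. Hspb8, which works with Bag3 in autophagy of aggregates, was 69 to 106 with a median of 78.5 in creatine-fed mice, and 84 to 110 with a median of 93 in untreated mice. Of the creatine-fed mice, 1 exceeded the untreated mean, and the log2 difference was -0.16 ± 0.09 (SE, limma adjusted p = 0.498). Its other probe sets gave -0.16 ± 0.16 and 0.14 ± 0.14 (SE). Hspb11, also known as the intraflagellar transport protein Ift25, was 149 to 197 with a median of 180.5 in creatine-fed mice, and 157 to 241 with a median of 203 in untreated mice. No creatine-fed mouse exceeded the untreated mean of 203.4, and the log2 difference was -0.20 ± 0.10 (SE, adjusted p = 0.447). Of 7 ependyma markers with motile cilia, 5 had lower means in creatine-fed mice, with summed intensities of 193 to 277, against 250 to 281 in untreated mice; 6 of the 7 lay below the array medians, and the part of ciliated cells in the Hspb11 value was not tested.

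The DnaJ proteins of synaptic vesicles and endosomes did not separate the groups. Dnajc5, the cysteine string protein that keeps vesicle fusion proteins folded, was 1036 to 1221 with a median of 1126 in creatine-fed mice and 991 to 1203 with a median of 1070 in untreated mice. Dnajc6, the auxilin that recruits Hspa8 to clathrin coats, was 2085 to 2538 with a median of 2277.5 in creatine-fed mice and 2029 to 2465 with a median of 2204 in untreated mice. The ranges of both overlapped almost wholly. The log2 difference of Dnajc5 was 0.06 ± 0.07, that of Dnajc6 0.02 ± 0.07 and that of the endosomal Dnajc13 0.03 ± 0.06 (SE). Other probe sets above the array medians ran from -0.04 to 0.09 for Dnajc5, gave 0.08 and -0.24 for Dnajc6, and gave 0.09 for Dnajc13. Dnajb2, a DnaJ protein with ubiquitin-interacting motifs that is rich in neurons, was 451 to 562 with a median of 492 in creatine-fed mice and 422 to 516 with a median of 457 in untreated mice, which also overlapped.

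Across the DnaJ families, the 4 class A genes had a median log2 difference of 0.024, the 13 class B genes of 0.026 and the 27 class C genes of 0.014. Dnajc9, a chaperone of histones H3 and H4, was the 1 gene of 72 whose groups did not overlap at the brightest probe set, against a background of 0.649% of all genes, 0.396% lower. Among probe sets the groups were apart at 2 of 174, with a background of 0.56%, this one and 1447824_x_at of Hspa5. It was 263 to 293 with a median of 281 in creatine-fed mice, and 297 to 343 with a median of 316 in untreated mice. The log2 difference was -0.18 ± 0.06 (SE, unadjusted p = 0.00741, adjusted p = 0.253, limma), and with each mouse left out it ran from -0.197 to -0.164. The highest creatine-fed mouse was at 293 and the lowest untreated mouse at 297, so the separation was narrow.

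Dnajc17, which carries an RNA-recognition motif, had the smallest p of the 72 genes at its brightest probe set. It was 76 to 139 with a median of 101.5 in creatine-fed mice, and 122 to 159 with a median of 144 in untreated mice. No creatine-fed mouse reached the untreated mean, and the log2 difference was -0.40 ± 0.12 (SE, unadjusted p = 0.00331, adjusted p = 0.214, limma). At 1420165_s_at it was 34 to 63 with a median of 58 in creatine-fed mice, and 26 to 57 with a median of 36 in untreated mice, a log2 difference of 0.33 ± 0.15 (SE; 0.21 with an offset of 50). The average of the gene's 3 probe sets gave 0.007, but it takes in 1449756_at, below the array medians at a mean intensity of 2.31.

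Dnajc4 was 152 to 189 with a median of 168 in creatine-fed mice and 158 to 222 with a median of 201 in untreated mice. No creatine-fed mouse exceeded the untreated mean (log2 difference -0.18 ± 0.08, SE, limma adjusted p = 0.392). Dnajc2, which sits at the ribosome exit and helps new chains fold, was 251 to 326 with a median of 290.5 in creatine-fed mice and 229 to 273 with a median of 255 in untreated mice. The log2 difference was 0.17 ± 0.07 (SE, limma adjusted p = 0.377), with 5 of 6 creatine-fed mice above the untreated mean. Its 1448794_s_at gave 147 to 202 in creatine-fed mice and 109 to 156 in untreated mice, a log2 difference of 0.37 ± 0.10 (SE, limma adjusted p = 0.186). At Dnajc16, the brightest probe set gave 0.14 ± 0.09 (SE). Its 1434781_at gave -0.44 ± 0.13 (SE, unadjusted p = 0.0038, adjusted p = 0.22, limma). At their brightest probe sets the remaining 46 genes, Dnajc16 among them, had log2 differences from -0.197 to 0.172, none at an unadjusted p under 0.05. Dnajb14 gave 0.07 ± 0.06 there (SE), but 0.58 ± 0.19 at 1430561_at (SE, unadjusted p = 0.00775, adjusted p = 0.255, limma). That was the widest difference of the 174 probe sets, with 184 to 355 in creatine-fed mice and 111 to 293 in untreated mice.

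Partners and cochaperones that stand outside the group by their symbols showed no called difference. Of 32 measured heat shock factors and cochaperones, 19 means were higher in creatine-fed mice and 13 lower, with a median log2 difference of 0.026; with median centring, 23 were higher and 9 lower. Bag4, an exchange factor of Hsp70, averaged 428 ± 35.9 in creatine-fed mice and 371 ± 9.60 in untreated mice (SD, n = 6 and 7, limma adjusted p = 0.253). Sugt1 and Sgtb, which bind Hsp90 and Hsp70, had log2 differences of 0.21 ± 0.08 and 0.19 ± 0.09 (SE), and Hscb, which serves iron-sulfur cluster assembly, of -0.22 ± 0.11 (SE). Bag4 had 3 probe sets and Sugt1 had 2, of which only the brightest is given here. Among the 15 subunits of the cytosolic chaperonin and of prefoldin, which passes actin and tubulin to it, 8 means were higher and 7 lower, with a median of 0.001; with median centring, 14 were higher and 1 lower. Cct2 gave 0.18 ± 0.07, Tcp1 0.04 ± 0.05 and Pfdn5 0.06 ± 0.06 (SE). Cct2 turned to -0.024 at its brightest probe set without an _x_at or _s_at suffix, and Pfdn5 to -0.120 with its probe sets averaged. Cct6b gave -0.60 ± 0.16 (SE, limma adjusted p = 0.201) at an intensity below the array medians, and -1.78 with an offset of 1 and -0.25 with an offset of 50.

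Whether these genes varied together among mice was examined on deviations from each group's mean. Among 55 pairs of heat-inducible genes the median Pearson correlation was 0.18, among 78 pairs of ER genes 0.16, and over all genes above the array medians 0.01. These are descriptions, since all genes of a mouse share its array. Hspd1 and Hspe1, which share a promoter region, gave r = -0.39, and Hspa5 and Hsp90b1, which share the ER element, gave r = 0.34. Hspa5 with Dnajc3 gave r = 0.14 and Hsp90b1 with Dnajc3 gave r = 0.42. None of these 4 passed an adjustment over all 133 pairs. Without the 2 mice farthest from the median, r was -0.21, 0.74, 0.17 and 0.45 for these 4 pairs in the same order. The r of Hspa5 and Hsp90b1 thus depended on 2 mice.

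One pair did pass: Dnajb1 and Hsp90aa1 ran opposite, with r = -0.92 over 13 mice (permutation p = 0.00022, adjusted p = 0.0293) and Spearman's rho = -0.86 (adjusted p = 0.104 over the 133 pairs). Within creatine-fed mice r was -0.98 and within untreated mice -0.81, and without the 2 mice farthest from the median of Dnajb1 it was -0.84. It held only in part under other scalings: quantile normalization gave r = -0.65 (adjusted p = 0.402) and centring each array on its median gave r = -0.47 (adjusted p = 0.313). With 1 mouse left out at a time r stayed between -0.95 and -0.84, and only the cases without untreated replicate 6 or untreated replicate 7 passed the adjustment (adjusted p from 0.00931 to 0.184). At the other 5 combinations of the bright probe sets of these genes r ran from -0.49 to 0.48, with adjusted p of 0.267 or more over the 6 combinations. The relation was thus seen at 1 probe set of each gene.

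**Figure D4:**
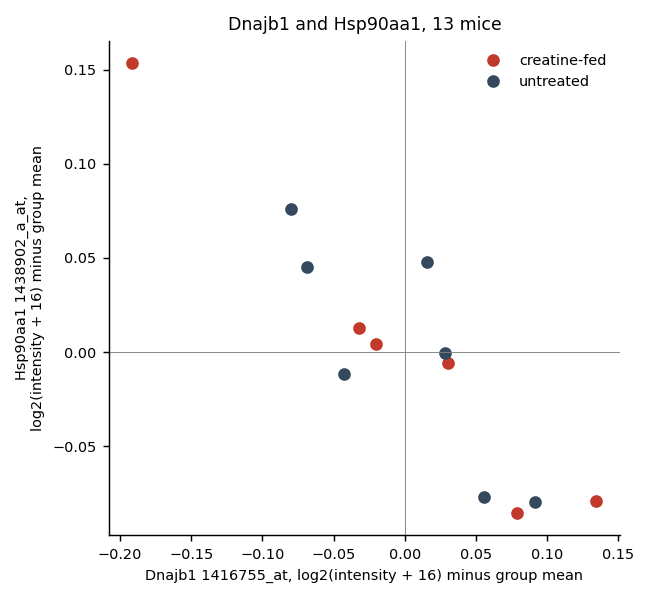
Deviation from the group mean in log2(intensity + 16) of Dnajb1 at 1416755_at (horizontal) and Hsp90aa1 at 1438902_a_at (vertical), 1 point per mouse, 6 creatine-fed and 7 untreated. Mice high in Dnajb1 are low in Hsp90aa1, with r = -0.92 over all 13.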

How the data were processed

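Affymetrix arrays of 13 mouse brain hemispheres were analysed from the value table deposited by the authors, which holds 1 intensity per probe set and array in linear whole numbers. The submitters' processing notes name RMA, which returns log2 values, so the values contradict them; the mean of each array was 150.05 once 2% of its probe sets were trimmed at either end. Nothing further was scaled, the scaling tool is not given in the sources used here, and the number of arrays limits precision. Labelling started from 3 µg of RNA, per the labels.

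After 64 control probe sets were left out, log2(intensity + 16) of 45037 probe sets was fitted with limma 3.58.1 in R 4.3.3 (creatine-fed minus untreated, no covariates, no filter), with p adjusted by Benjamini-Hochberg. Groups came from the sample titles. Symbols came from the supplied platform table, and all 72 were matched through their Entrez ID. Exact permutation covered 1716 splits, and covariation used 100000 permutations within groups. Promoters are from RefSeq. On simulated data of 45037 probe sets with planted changes, 41% of 100 log2 changes of 0.5 and 89% of 100 of 1 were recovered, and 8.45% of calls were false. The simulated noise was normal and independent between probe sets, and the changes were planted at random probe sets, bright or dim. Smaller changes were not simulated, so these rates do not give the power for the chaperone genes. Python 3.11.15 and matplotlib 3.10.9 drew the figures.

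The genes, lists, tests and alternatives were chosen with earlier results of these data known. Values by group range were given for the heat-inducible list, Hspa5, Hsp90b1, Hspa9, Hspb8, Dnajc5, Dnajc6, Dnajb2 and the 6 genes per direction with the smallest unadjusted p; from each outside list, up to 4 genes with the smallest p. Other genes with values (Dnajc16, Dnajb14, Hspa4, Hspa13, Dnajb9, Dnajb11, Dnajc3, Dnajc10, Dnajc13), and the further probe sets, were chosen by role or after their values were seen. Alternatives were other offsets, scalings and probe set choices, a brightness filter, array weights, eBayes options, the replicate number as a block and leaving out mice. Replicate numbers were checked as pairs: deviations of same-numbered mice correlated at -0.055 to 0.146, and 1 of 6 correlated best with its own number, so the numbers were not treated as pairs.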

Additional observations from a re-analysis of the deposited data

Results flagged for a closer look

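In 9 of 144 groups of a gene at its brightest probe set, 1 mouse lay far from the others by Dixon's gap ratio, where chance gives about 1 in 20 groups. In creatine-fed mice, Hspa1a was 62 in replicate 6 against 92 to 112 in the others, and Hspa2, an Hsp70 of germ cells, was 218 in replicate 3 against 166 to 183. Hspa9 was 987 in replicate 4 against 868 to 891, Hspbp1 was 317 in replicate 1 against 343 to 355, and the dim Dnajb8 was 1 in replicate 2 against 26 to 43. In untreated mice, replicate 6 was lowest for Dnajb6, at 1488 against 1576 to 1643, and for Dnajc1, at 100 against 130 to 148. Dnajc28 was 60 in replicate 3 against 74 to 85, and the dim Hspb9 was 14 in replicate 4 against 1 to 3.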

How the results depend on the processing

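No gene named from the chaperone family passed the threshold in any of 649 alternative values for 26 genes, with a smallest adjusted p of 0.0939 (limma). These values were taken at the brightest probe set, at the brightest without an _x_at or _s_at suffix, or as the average of a gene's probe sets. They include the exact permutation test, whose smallest adjusted p over the whole table was 0.17, so its part carries no weight. Over the whole table the 4 calls became 137 among brighter probe sets, 0 with an offset of 1, 36 with an offset of 50, 2 with quantile normalization, 161 with trend and robust options, 13 with array weights, 2 without creatine-fed replicate 2 and untreated replicate 3, and 0 to 6 with 1 mouse left out. Of the 174 chaperone probe sets, 1 was called among brighter probe sets, with an offset of 50 and with trend and robust options, and 0 with any 1 mouse left out. The 3 genes lower at an unadjusted p under 0.05 became 5, 6, 1 and 6 with brighter probe sets, offset 50, median centring and trend and robust options, and 2 to 6 without 1 mouse; the 4 higher became 5, 6, 6 and 6 in those same 4 settings and 2 to 5 without 1 mouse. Over all probe sets, 5345 were under that p in the main fit. In those 4 settings it was 3746 of the brighter 22519 probe sets, and 5774, 4984 and 5686 of 45037. Of these, 42.3%, 36.8%, 63.9% and 37.6% were higher, against 35.1% in the main fit. With the replicate block, 1 gene was higher at that p, no probe set and no probe set pair was called, and the Hspa5 and Dnajc17 pairs were -0.480 and 0.748.

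Median centring raised the median log2 difference of the 72 genes to 0.060, and with 1 mouse left out it ran from -0.016 to 0.018. The share of higher calls at an unadjusted p under 0.05 over all probe sets was 35.1%, 48.6% with quantile normalization and 63.9% with median centring. Signs turned for Hspa8 with quantile normalization (0.032), for Dnaja1 (0.009) and Hspd1 (0.031) with median centring, and with probe sets averaged per gene for Hspb1 (0.003), Hspe1 (-0.040), Hspa4l (0.053), Hspa5 (-0.176), Hsp90b1 (0.019), Hspa9 (-0.082), Dnajc17 (0.007) and Pfdn5 (-0.120). The averages took in dim probe sets, 1449756_at of Dnajc17 (mean intensity 2.31) and 1453811_at of Hspa9 (20.5) among them. Without _x_at and _s_at probe sets, signs turned for Hspa1b (-0.107), Hspe1 (-0.125), Dnajc2 (-0.156, at 1454219_at, mean intensity 11.5) and Cct2 (-0.024). With 1 mouse left out they turned for Hspa1b (-0.003 to 0.095), Hspb1 (-0.101 to 0.011), Hspe1 (-0.030 to 0.090) and Dnajc6 (-0.014 to 0.042). The cause was not tested.

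The 75 probe set pairs called over all genes became 17 with an offset of 1, 116 with an offset of 50, 198 with array weights, 6 without those 2 mice together and 2 to 268 with 1 mouse left out; the 2 chaperone pairs became 0, 3, 4, 0 and 0 to 5. The Hspa5 pair was -0.541 with an offset of 1 and -0.452 without those 2 mice, and the Dnajc17 pair 0.904 and 0.833, none of these past the threshold; with 1 mouse left out they ran from -0.564 to -0.459 and from 0.628 to 0.807. The pairs that varied together past the threshold numbered 0 with quantile normalization, 2 with median centring, 0 without those 2 mice and 0 to 1 with 1 mouse left out. Dim probe sets limit the reading of Hspa12b and of 4 of the 8 genes listed as small heat shock proteins. The same holds for the turned signs of Dnajc2 and Dnajc17, and for the called Dnajc17 pair.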
